A study of Mus musculus with 17 samples.

Results

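The experiment described here asked what the AKT inhibitor GSK690693 did to the RNA of cultured mouse mammary gland macrophages, with and without the chemokine CXCL12. It comprised 4 of the 17 libraries of the series, 1 library for each of 4 cultures. Per the labels, macrophages of wild type virgin mice were sorted on F4/80 and CD11b and kept in RPMI medium with 2% fetal bovine serum. The cultures were untreated, given recombinant CXCL12, given GSK690693, or given both agents. The inhibitor comparison set the 2 libraries with GSK690693 against the 2 without, in 2 pairs: inhibitor against untreated, and both agents against CXCL12. Dose, duration, the number of mice and whether the cultures had separate donors are not stated in the labels. With 1 library per culture, the p-values do not measure a spread between replicate cultures. Their error is the difference between the 2 pairs, pooled with that of other genes, and it may be technical. An inhibitor effect that truly differed with CXCL12 would also count as error.

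AKT kinases are activated downstream of phosphatidylinositol 3-kinase, which many growth factor and chemokine receptors engage, among them CXCR4, the receptor of CXCL12. Active AKT phosphorylates FOXO transcription factors and keeps them out of the nucleus, and it feeds into mTORC1, the kinase complex that drives protein synthesis and growth. In macrophages the pathway also meets signalling from Toll-like receptors, which sense microbial products and induce interferon and inflammatory genes. GSK690693 is an ATP-competitive inhibitor of AKT kinases that also acts on some related kinases. It blocks an enzyme's activity, so the level of AKT mRNA does not check its action, and the tables hold no measurement of AKT activity.

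With the inhibitor, 12 genes fell and none rose in a test over 13881 genes. Prominent among the 12 were genes of the interferon response (Rsad2, Ifit1, Oasl1, Ifih1), inflammatory mediators (Ptgs2, Acod1, Il1a, Ccl4) and a peroxide-reducing pair (Prdx1, Srxn1). Inhba and the processed pseudogene Gm21399 made up the rest. The test was limma on log2(CPM + 1), where CPM is the reads of a gene scaled to an equal total in each library, with CXCL12 status as a second term and Benjamini-Hochberg adjustment, and a gene was called at an adjusted p under 0.05. The genes called lower were 0.0864% of those tested and the genes called higher 0%. At an unadjusted p under 0.05 there were 1003 lower genes (7.23%) and 404 higher genes (2.91%). No DESeq2 or edgeR count test was run, because the deposited values are not counts. All 12 genes were at least 2-fold lower in both pairs, and in each of them both libraries with the inhibitor lay below both libraries without it. How many of all genes show such a lack of overlap was not counted, so here and below it is a description only. The calls depended on the settings: 0 genes passed without the CXCL12 term, without the mean-variance trend, or with a pseudocount of 0.1 CPM. Fits with 1 of the 4 libraries left out also lacked the CXCL12 term, so they do not test any single library separately. Every change below is on the log2(CPM + 1) scale, with minus without inhibitor, and is the mean of both pairs unless a pair is named.

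The promoters of 4 of the 12 genes are shown because they come from the interferon and the peroxide groups and hold short motifs that bear on those names. They were read from RefSeq on GRCm38.p6, as the 250 bases before the transcript start, in the direction of transcription. Capitals in the Ifit1 and Rsad2 promoters mark the core of the interferon-stimulated response element (ISRE), searched as GAAANNGAAA on both strands. Capitals in the Srxn1 and Prdx1 promoters mark the AP-1 motif, searched as TGAGTCA on both strands. These letters also form the core of many antioxidant response elements, to which the transcription factor NRF2 binds.
Ifit1, chr19:34640639-34640888, plus strand: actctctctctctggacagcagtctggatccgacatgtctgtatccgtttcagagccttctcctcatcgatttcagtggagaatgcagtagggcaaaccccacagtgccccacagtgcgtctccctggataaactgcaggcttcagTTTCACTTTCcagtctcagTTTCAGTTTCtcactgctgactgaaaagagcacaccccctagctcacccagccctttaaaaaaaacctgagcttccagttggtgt
Rsad2, chr12:26456453-26456702, minus strand: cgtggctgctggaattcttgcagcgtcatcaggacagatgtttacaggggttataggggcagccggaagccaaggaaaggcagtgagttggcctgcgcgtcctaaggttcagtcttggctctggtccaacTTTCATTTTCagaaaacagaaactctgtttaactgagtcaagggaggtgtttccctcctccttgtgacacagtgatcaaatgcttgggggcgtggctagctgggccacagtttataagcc
Srxn1, chr2:152105274-152105523, plus strand: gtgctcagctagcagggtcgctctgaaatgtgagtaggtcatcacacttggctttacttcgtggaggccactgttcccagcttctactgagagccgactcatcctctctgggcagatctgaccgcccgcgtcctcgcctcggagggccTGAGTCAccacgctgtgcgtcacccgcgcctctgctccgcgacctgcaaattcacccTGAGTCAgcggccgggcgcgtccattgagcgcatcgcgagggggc
Prdx1, chr4:116685349-116685598, plus strand: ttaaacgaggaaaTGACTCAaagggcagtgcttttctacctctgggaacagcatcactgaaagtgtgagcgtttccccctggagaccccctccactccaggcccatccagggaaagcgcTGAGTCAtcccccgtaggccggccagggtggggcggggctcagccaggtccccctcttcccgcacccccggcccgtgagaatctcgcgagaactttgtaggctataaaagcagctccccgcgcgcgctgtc
Ifit1 held 2 ISRE cores, starting 104 and 85 bases before the transcript start, and Rsad2 held 1, at 120 bases. Srxn1 held AP-1 letters at 102 and 45 bases, and Prdx1 at 237 and 131 bases.

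Promoter windows of 250 bases before to 50 after the start were found for 10 of the 12 genes, and for 8964 protein-coding genes tested. The ISRE core was in 3 of the 10 (Ifih1, Ifit1, Rsad2; 30%) against 3.93% of all 8964. The AP-1 letters were in 4 of the 10 (Il1a, Prdx1, Rsad2, Srxn1; 40.0%) against 5.04%. The FOXO motif GTAAACA was in 1 of the 10 (Rsad2; 10%) against 3.15%, and the CREB motif TGACGTCA in 0 against 3.44%. The E-box CACGTG was in 1 (Ptgs2; 10%) against 11.8%, and the sterol element TCACNCCAC in 0 against 1.33%. The NF-kB letters GGGANNNNCC were in 3 (Acod1, Oasl1, Rsad2; 30%) against 30.8%, and the antioxidant letters TGACNNNGC, which can overlap AP-1 letters, in 3 (Prdx1, Rsad2, Srxn1; 30%) against 17.2%. The ISRE, NF-kB and antioxidant letters were added after the expression values had been seen. A match describes the letters only.

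The 4 interferon response genes called lower were Rsad2, Ifit1, Oasl1 and Ifih1. Rsad2, which encodes viperin, stood at 1657 CPM untreated, 2160 CPM with CXCL12, 358 CPM with the inhibitor and 480 CPM with both agents. The fall was 2.21 without and 2.17 with CXCL12, and the mean change was -2.19 (SE 0.21, 95% interval -2.65 to -1.73, adjusted p = 0.000387). Both inhibitor libraries were far below both others, and the pairs differed little.

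Ifit1, whose protein binds viral RNA, was at 711 CPM in both libraries without the inhibitor, at 166 CPM with it and at 161 CPM with both agents. Its mean change was -2.11 (SE 0.24, interval -2.62 to -1.61, adjusted p = 0.00147). Oasl1, a relative of the oligoadenylate synthetases, was at 542 CPM untreated and 461 CPM with CXCL12, against 172 CPM with the inhibitor and 124 CPM with both. The 2 groups of libraries did not overlap, and the mean change of Oasl1 was -1.77 (SE 0.25, adjusted p = 0.0123). Ifih1 encodes MDA5, a sensor of double-stranded RNA. It was at 542 and 610 CPM without the inhibitor and at 210 and 196 CPM with it, a change of -1.499 (SE 0.24, adjusted p = 0.024).

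**Figure D1:**
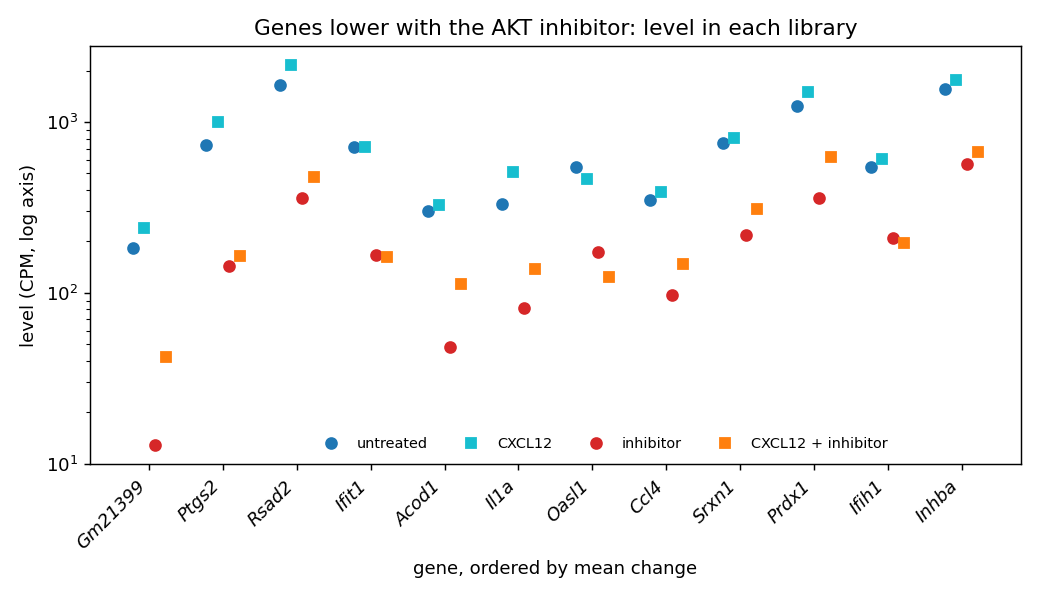
Level of each of the 12 genes called lower with the AKT inhibitor, in CPM on a log axis, in each of the 4 libraries (1 point per library, no replicates). For every gene the 2 points with the inhibitor lie below the 2 points without it.

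Among the inflammatory mediators, Ptgs2 had the lowest p. It encodes cyclooxygenase 2, the inducible enzyme of prostaglandin synthesis. Its level was 732 CPM untreated, 999 CPM with CXCL12, 144 CPM with the inhibitor and 165 CPM with both. The mean change was -2.46 (SE 0.24, interval -2.97 to -1.96, adjusted p = 0.000387), a 5.60-fold ratio of mean CPM. Acod1 encodes the enzyme that makes itaconate in activated macrophages. It was at 302 and 326 CPM without the inhibitor, 47.9 CPM with it and 113 CPM with both agents. Its fall was 2.63 without CXCL12 and 1.53 with it, the widest gap between pairs among the 12 after the pseudogene (mean -2.08, SE 0.33, adjusted p = 0.0228). Il1a, the cytokine interleukin 1 alpha, was at 333 CPM untreated, 513 CPM with CXCL12, 81.3 CPM with the inhibitor and 138 CPM with both (mean -1.95, SE 0.27, adjusted p = 0.0114). Ccl4, a chemokine that attracts monocytes and T cells, was at 351 and 391 CPM without and at 97.0 and 148 CPM with the inhibitor (mean -1.62, SE 0.27, adjusted p = 0.0367).

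Prdx1 and Srxn1 act on the same chemistry: peroxiredoxin 1 reduces peroxides, and sulfiredoxin restores peroxiredoxins that have been over-oxidised. Prdx1 was at 1247 CPM untreated, 1509 CPM with CXCL12, 359 CPM with the inhibitor and 626 CPM with both. Srxn1 was at 757, 812, 217 and 309 CPM in the same order. Both genes fell further in the pair without CXCL12, Prdx1 by 1.79 against 1.27 and Srxn1 by 1.80 against 1.39. Mean changes were -1.53 for Prdx1 (SE 0.23, adjusted p = 0.0134) and -1.59 for Srxn1 (SE 0.23, adjusted p = 0.0134).

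Inhba encodes the beta A subunit of activin, a secreted ligand of the TGF-beta family. It was at 1558 and 1771 CPM without the inhibitor and at 571 and 669 CPM with it (mean -1.42, SE 0.21, adjusted p = 0.0139). The pseudogene Gm21399 was at 184 and 240 CPM without and at 12.8 and 42.2 CPM with the inhibitor (mean -3.12, SE 0.44, adjusted p = 0.0123). Reads of a processed pseudogene can come from a near-identical copy, so this gene's identity is uncertain. Just outside the threshold were Ifi203, a p200 family gene at 386 and 408 CPM without and 129 and 156 CPM with the inhibitor (adjusted p = 0.0516), and Met. Met encodes the receptor of hepatocyte growth factor and was at 355 and 399 CPM without and 134 CPM in each library with it (adjusted p = 0.0534). Jag1, which encodes a Notch ligand, was at 568 and 516 CPM without and at 247 and 203 CPM with the inhibitor (adjusted p = 0.074). These 3 genes did not pass. Their groups did not overlap, which does not set them apart, since the share of all genes without overlap was not counted.

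The agreement of both pairs differed with expression level. Among 5132 genes with a mean of 1 to 10 CPM, 1320 changed at least 2-fold in opposite directions in the 2 pairs, more than the 276 higher or the 1166 lower in both. At 30 to 100 CPM the numbers were 85 higher, 94 lower and 83 opposite among 2987 genes. At 100 CPM or more, of 2127 genes, 5 were at least 2-fold higher in both pairs (0.235%), 25 were lower in both (1.18%) and 0 were opposite. The correlation of both changes across genes, which are not independent replicates, was 0.02 at 1 to 10 CPM, 0.34 at 100 to 300 CPM and 0.54 at 300 CPM or more. The 2 pairs have no library in common. With at least 10 CPM in the higher arm, 549 of 9786 genes were at least 2-fold higher in both pairs (5.61%), 648 were lower (6.62%) and 747 were opposite, so those counts were not used to name genes.

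**Figure D2:**
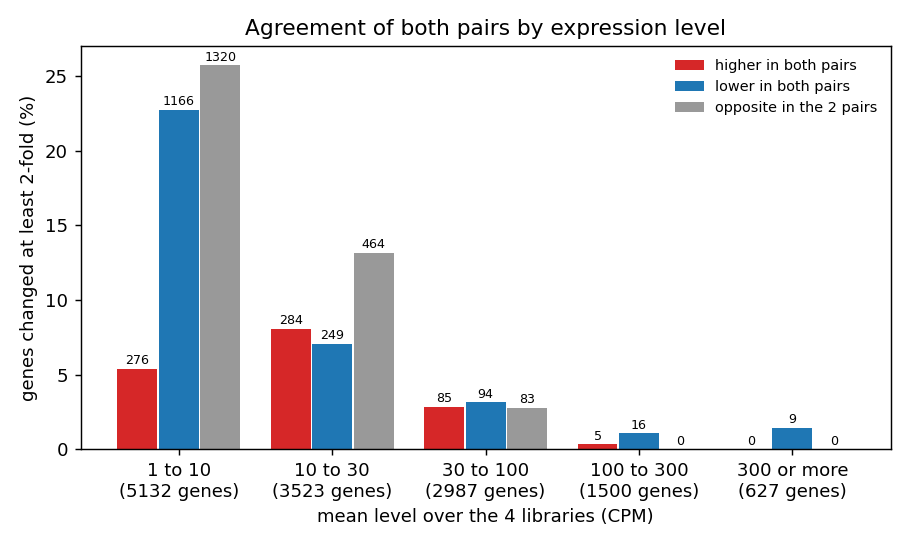
Share of genes, in percent, that changed at least 2-fold with the inhibitor in both pairs or in opposite directions, by mean level over the 4 libraries; numbers above bars count genes. Opposite changes are the most frequent class below 30 CPM and number 0 at 100 CPM or more.

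Library depth, estimated from the value of 1 read, was about 21100000 reads untreated, 29000000 with CXCL12, 14300000 with the inhibitor and 16000000 with both. Both inhibitor libraries were thus the shallower, and 3 reads were worth 0.103 to 0.209 CPM. The share of genes at 0 was 16.3%, 12.5%, 19.7% and 31.0% in that order. The library with both agents lacked the most genes although it was deeper than the inhibitor library, and the cause was not tested. In the bin of 1 to 10 CPM the median change was -1.58 with CXCL12 and 0.00 without. The 12 called genes had means of at least 119.9 CPM, and the part of depth in the calls was not tested. The median change of all genes was -0.13, and it was 0.00 at 100 CPM or more and under quantile normalization.

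The median standard error of a change was 1.22 below 100 CPM and 0.28 at or above it. The same model was therefore also fitted to the 2127 genes of 100 CPM or more, a choice made after the values had been seen. There 80 genes were called lower (3.76%) and 27 higher (1.27%), and the 12 genes above were all among the 80. That fit shared 1 spread per level among genes, so a disagreement between the pairs did not hold a gene back. Not all of the 80 fell in both pairs, as Rps2-ps10 changed by 0.24 without CXCL12 and -4.76 with it. Zfp655 fell almost only in the pair with CXCL12, changing by -1.69 there and by -0.02 without CXCL12. The CXCL12 term, fitted to the same libraries, gave 0 genes in that fit and 0 in the test over all genes. Among the 27 called higher in the restricted fit were Selp, which encodes the adhesion molecule P-selectin, Sik1, Jun, Kmt2d, Nktr, Pde2a, Tubb5 and Chka. Gm47283 was also among them, at 1376 and 1516 CPM without and 3285 and 2856 CPM with the inhibitor. So was the noncoding RNA 7SK, at 4883 and 4046 CPM against 7737 and 7443 CPM. Small noncoding RNA made up 2.77% and 2.95% of the libraries without and 3.29% and 3.65% of those with the inhibitor. None of the 27 passed the test over all genes, where the lowest adjusted p of a higher gene was 0.129.

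Selp was at 1413 CPM untreated, 1158 CPM with CXCL12, 2517 CPM with the inhibitor and 1851 CPM with both (mean 0.75, SE 0.21, adjusted p = 0.488 over all genes and 0.00925 in the restricted fit). Sik1, a salt-inducible kinase gene, was at 354 and 371 CPM without and 597 and 679 CPM with the inhibitor (mean 0.81, adjusted p = 0.488 and 0.0164). Jun, a subunit of AP-1, was at 261 and 292 CPM without and 460 and 510 CPM with it (mean 0.81, adjusted p = 0.488 and 0.0297). Kmt2d, a histone H3 lysine 4 methyltransferase gene, was at 192 and 300 CPM without and 465 and 490 CPM with it (mean 0.99, adjusted p = 0.399 and 0.00413). The inhibitor libraries lay above the others in all 4 genes, but the share of all genes where they did was not counted. Mean changes were 0.79 for Nktr, 1.21 for the cyclic nucleotide phosphodiesterase gene Pde2a, 1.01 for the tubulin gene Tubb5 and 1.01 for the choline kinase gene Chka. Below 100 CPM, Hip1r was at 22.9 and 15.7 CPM without and 120 and 107 CPM with the inhibitor (change 2.51, adjusted p = 0.143 over all genes). The means of Selp, Sik1, Jun and Kmt2d were between 0.75 and 0.99, while the 12 genes called lower had means between -3.12 and -1.42.

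**Figure D3:**
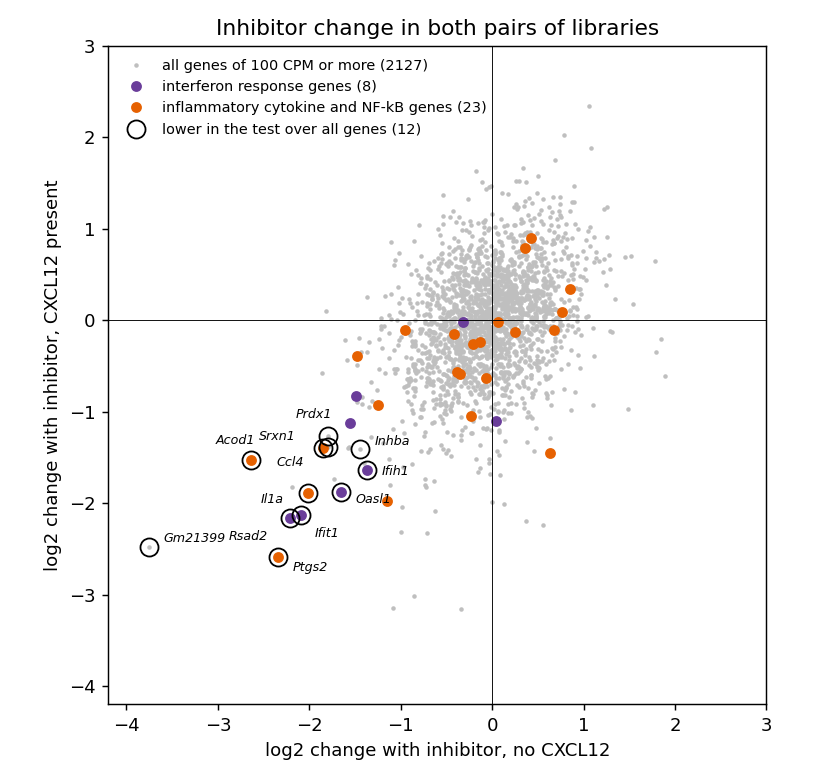
Log2(CPM + 1) change with the inhibitor without CXCL12 (horizontal) and with CXCL12 (vertical) for the 2127 genes of 100 CPM or more, 1 point per gene. Interferon response and inflammatory list members are coloured and the 12 genes called lower are ringed; these lie in the lower left, at -1.27 or below on both axes.

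The interferon response list has 27 genes, and all 27 were tested. Of these, 4 were called lower, against 0.0864% of all genes, and none higher. In both pairs 21 were below 0 and 1 above, where all genes had 29.7% below and 22.7% above. The list's median change was -1.23, with -1.36 without and -1.19 with CXCL12, against -0.13 for all genes. Among its 8 members of 100 CPM or more, 7 were below 0 in both pairs (87.5%, against 32.1% of all genes at that level), with a median of -1.42. Members that did not pass included Oasl2, at 147 and 105 CPM without and 67.0 and 28.7 CPM with the inhibitor, and Ifit2, at 142 and 125 CPM against 45.4 and 60.7 CPM. The GTPase gene Mx1 was at 87.3 and 70.0 CPM without and 15.4 and 26.7 CPM with it. Isg15, a ubiquitin-like modifier, was at 55.6 and 83.4 CPM against 9.64 and 33.1 CPM. Each of these 4 had an adjusted p of 0.488. In the restricted fit 5 of 8 members were called lower, against 3.76% of all genes there, the added one being Ifi204. Among the 8 members of 100 CPM or more, Irf1 had the smallest change, at 203, 185, 162 and 183 CPM (change -0.17, adjusted p = 0.926 over all genes).

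The inflammatory cytokine and NF-kB list was more mixed. Of 34 genes 32 were tested, and 4 were called lower and none higher, against 0.0864% and 0% of all genes. In both pairs 19 were below 0 and 5 above, against 29.7% and 22.7% of all genes, and the median change was -0.38 against -0.13. Tnf, a central inflammatory cytokine, was at 448 CPM untreated, 537 CPM with CXCL12, 187 CPM with the inhibitor and 283 CPM with both (change -1.09, adjusted p = 0.218). The neutrophil chemokine gene Cxcl3 was at 187 and 310 CPM without and 83.6 and 77.8 CPM with it (change -1.57, adjusted p = 0.138). Il1b was at 62.5 and 84.9 CPM against 19.9 and 25.7 CPM (change -1.64, adjusted p = 0.488). Il1rn, the antagonist of the interleukin 1 receptor, was among the most abundant, at 5646 and 5089 CPM without and 2023 and 3892 CPM with the inhibitor (change -0.93, adjusted p = 0.488). In the restricted fit 7 of 23 members were called lower, Tnf, Cxcl3 and Il1rn among them, and 1 was called higher, against 3.76% and 1.27% of all genes there.

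Several members that regulate or respond to NF-kB had the opposite sign. Nfkb1, which encodes the p105 and p50 subunit, was at 540 and 585 CPM without and 976 and 744 CPM with the inhibitor. Nfkbia, the inhibitor IkB alpha, was at 447 and 417 CPM against 572 and 720.5 CPM. Icam1, an adhesion molecule, was at 1113 and 710 CPM against 1492 and 1323 CPM, and was called higher in the restricted fit (adjusted p = 0.0343). The changes were 0.60, 0.57 and 0.66, each with an adjusted p of 0.488 over all genes. Tnfaip3, which encodes the feedback protein A20, was at 1157, 1223, 1055 and 1040 CPM, with a change of -0.18.

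**Figure D4:**
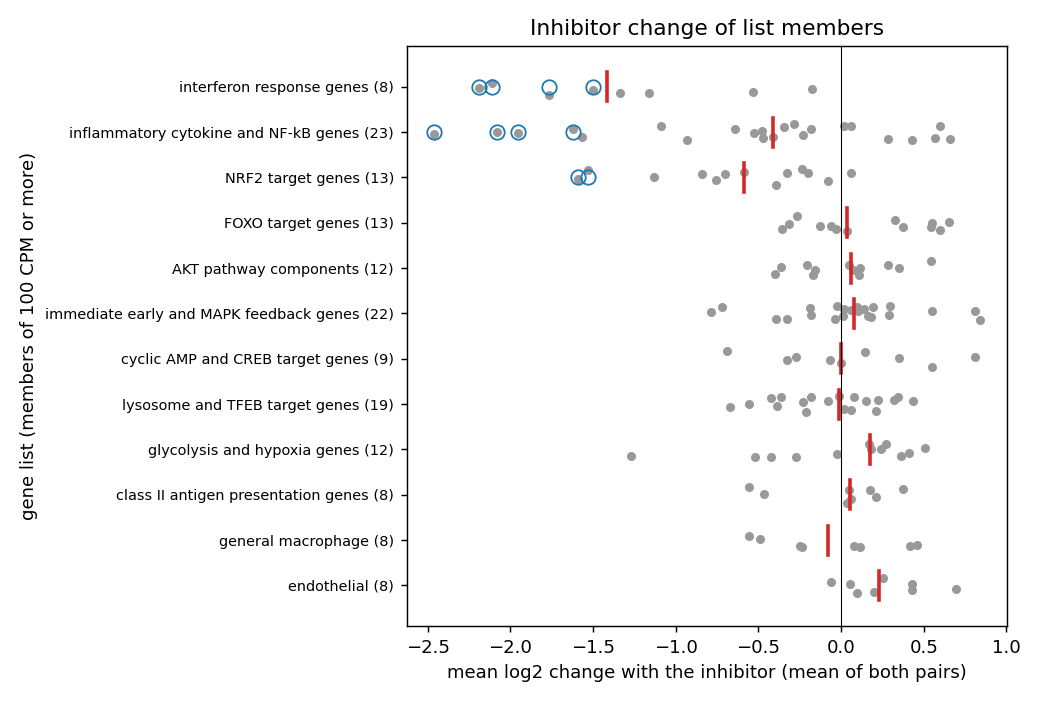
Mean log2(CPM + 1) change with the inhibitor for members of 100 CPM or more of 12 gene lists, 1 grey point per gene; red bars are list medians, rings mark genes called lower in the test over all genes. The interferon list has a median of -1.42, while the FOXO target and AKT pathway lists lie around 0.

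Of 35 AKT pathway components tested, none was called, where 0.0864% of all genes were, so the count says nothing particular to the list. In both pairs 10 were above 0 and 11 below, against 22.7% and 29.7% of all genes, and the median was -0.21 against -0.13. Akt1 was at 73.4 CPM untreated, 53.1 CPM with CXCL12, 126 CPM with the inhibitor and 106 CPM with both (change 0.88, interval 0.07 to 1.68, adjusted p = 0.488). Akt2 was at 21.3, 36.8, 31.1 and 37.9 CPM in the same order, with an interval of -1.20 to 1.77. Rps6kb1, which encodes the S6 kinase downstream of mTORC1, was at 86.6 and 80.6 CPM without and 26.04 and 32.6 CPM with the inhibitor (change -1.49, adjusted p = 0.488).

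FOXO target genes are the set most often read as a sign of AKT inhibition, since FOXO factors enter the nucleus when AKT is inactive. Of 38 listed genes 35 were tested and none was called, against 0.0864% of all genes. In both pairs 9 were above 0 and 7 below, against 22.7% and 29.7% of all genes, and the median of -0.13 was that of all genes. At 100 CPM or more, 6 of 13 were above 0 in both pairs (46.2%) and 2 below (15.4%), against 30.4% and 32.1% of all genes there. Insr, the insulin receptor gene, was at 226 and 188 CPM without and 391 and 271 CPM with the inhibitor (change 0.65, interval 0.11 to 1.20, adjusted p = 0.488). Irs2, an adaptor of the same receptor, was at 279, 254, 298 and 548 CPM, so that its pairs changed by 0.09 and 1.11. Txnip was at 327 and 349 CPM without and 449 and 540 CPM with it (change 0.54). Ccng2 was at 91.1, 111, 61.9 and 126 CPM (change -0.19), Klf2 at 31.97, 48.7, 23.0 and 33.7 CPM (change -0.49) and Bcl2l11, which encodes the cell death protein BIM, at 727, 714, 526 and 828 CPM (change -0.13). The intervals of Ccng2 and Bcl2l11 were -0.98 to 0.60 and -0.63 to 0.38. In both genes the pairs changed in opposite directions, Ccng2 by -0.55 without and 0.18 with CXCL12. With 1 library per culture, these intervals do not measure the spread between cultures. The FOXO genes themselves were not called: Foxo1 was at 206, 208, 205 and 156 CPM (change -0.21), and Foxo3 at 62.05, 45.1, 63.4 and 143 CPM (change 0.84). In the restricted fit 0 of 13 FOXO targets and 0 of 12 AKT pathway components were called, where 3.76% of all genes were lower and 1.27% higher. Counts of 0 in lists of this size do not set the members apart from other genes.

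Ddit4, which encodes an inhibitor of mTORC1, was 1 of the 5 genes of 100 CPM or more that were at least 2-fold higher in both pairs. It was at 73.1 and 46.7 CPM without and 175 and 112 CPM with the inhibitor (change 1.25, SE 0.36, adjusted p = 0.488), and it was not called in the restricted fit. The others were Synpo2, Mtmr3, Gm10222 and 1700017B05Rik. Synpo2 was at 95.0 and 70.2 CPM without and 223 and 164 CPM with it. Cxcr4 was at 184, 139, 175 and 379 CPM and Cxcl12 at 277, 218, 282 and 443 CPM in the order untreated, CXCL12, inhibitor, both. Both were highest in the library with both agents, and neither was called (adjusted p = 0.503 and 0.554).

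Macrophage markers were present in all 4 libraries. Lyz2, the lysozyme of myeloid cells, was at 5952, 5681, 4941 and 8034 CPM and Cd14 at 656, 756, 535 and 668 CPM. Adgre1 and Itgam, which encode the sorted proteins F4/80 and CD11b, were at 149 to 240 CPM and 167 to 207 CPM. Csf1r was at 234, 173, 219 and 351 CPM. The 18 general macrophage markers tested had a median change of 0.11 (-0.10 without and 0.10 with CXCL12), and their summed level was 8371 and 8382 CPM without and 7273 and 10785 CPM with the inhibitor.

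Markers of endothelial cells, which line blood vessels, were also abundant although the gate was for macrophages. All 12 endothelial markers were tested, and their summed level was 3319 and 2870 CPM without and 4135 and 3493 CPM with the inhibitor. None was called, against 0.0864% of all genes. In both pairs 6 were above 0 and none below, against 22.7% and 29.7% of all genes, and the median change was 0.26. Cdh5, the cadherin of endothelial junctions, was at 697, 678, 869 and 774 CPM, and Pecam1 at 516, 415, 461 and 530 CPM. Selp, described above, is also made by endothelial cells, and the part of these cells in its level was not tested. In bulk RNA, fewer cells of a type and less RNA per cell cannot be told apart.

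The 12 genes were then read in libraries of other experiments of the series, which share no library with the cultures. Macrophages sorted fresh from wild type mice into CXCR4-positive (2 libraries) and CXCR4-negative (1 library) cells gave 5.06% of 14411 genes called higher and 3.40% called lower in the positive cells by limma. The negative group has 1 library, whose own spread was not measured; the fit assumes that it varies like the positive ones, so its calls describe these 3 libraries. Of the 12 genes, 8 were called higher there and 1 lower, 11 had a change above 0, against 41.3% of all genes, and the median was 2.02 against -0.20. Oasl1 was at 300 and 469 CPM in CXCR4-positive cells and 12.7 CPM in CXCR4-negative cells (change 4.78). Ccl4 was at 578 and 955 CPM against 96.0 CPM (change 2.94), Ifit1 at 203 and 266 CPM against 23.1 CPM (change 3.28) and Il1a at 444 and 245 CPM against 60.9 CPM (change 2.42). Acod1 was the gene called lower, at 7.54 and 14.4 CPM against 50.8 CPM (change -2.17). Ptgs2 was nearly level, at 598 and 649 CPM against 602 CPM (change 0.05). Inhba was low there, at 2.19 and 8.49 CPM against 3.79 CPM, and Gm21399 was at 19.5 and 59.2 CPM against 31.1 CPM. Ptgs2, Inhba and Gm21399 count among the 11 above 0, but were not called, and Inhba and Gm21399 lay on both sides of the negative library.

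**Figure D5:**
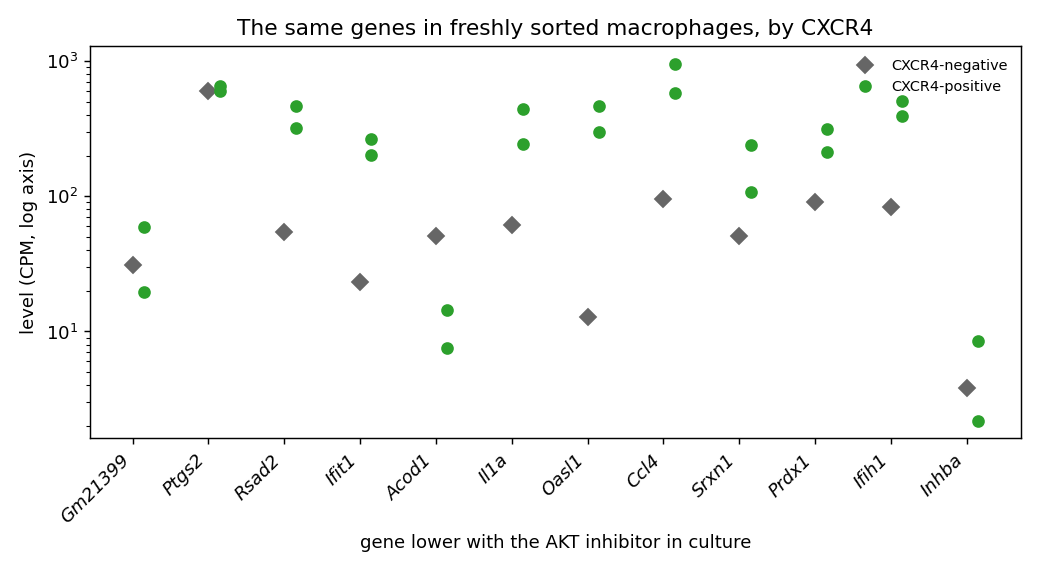
Level in CPM, on a log axis, of the 12 genes called lower with the inhibitor in culture, in freshly sorted CXCR4-positive (2 points) and CXCR4-negative (1 point) macrophages. Oasl1, Ifit1 and Ccl4 are higher in both CXCR4-positive libraries, Acod1 is lower in both and Ptgs2 is level.

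The 12 genes were also read in macrophages with a LysM-Cre deletion of Cxcr4 (LysmCre+, Cxcr4fl/fl), 2 libraries against 2 LysmCre+ controls. LysM-Cre is active in myeloid cells. None of the 12 genes passed there, each at an adjusted p of 1, and 1 of 17275 genes did (0.00579%). With so few calls among all genes, the fit cannot decide whether the 12 fall in the knockout. Of the 12, 9 had a change above 0, with a median of 0.35 against 0.14 for all genes, of which 57.8% were above 0. The labels number the libraries of each group, without saying that a number marks a shared litter or day. Between the libraries numbered 1, 9 of the 12 were above 0 (median 0.71), where 8264 of all 17275 genes were (median 0.00). Between those numbered 2, 6 of the 12 were above 0 (median 0.08), where 9713 of all genes were (median 0.11). Rsad2 was at 63.9 and 165 CPM in controls and 427 and 164 CPM in knockouts (change 1.36), with 1 knockout library above the other 3 libraries and 1 control library below them. Ptgs2 was at 494 and 485 CPM in controls and 159 and 375 CPM in knockouts, and both knockouts lay below both controls (change -1.001).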

How the data were processed

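Per the labels' protocols, total RNA was extracted on RNeasy columns, depleted of ribosomal RNA with QIAseq FastSelect and made into libraries with PrepX chemistry; per the submitters' processing notes, STAR 2.7.8a, Partek and the build hg38 were used, although the deposited gene identifiers are mouse. The authors' deposited values are log2(CPM + 0.0001), a unit read from the values themselves; counting settings are not given in the sources used here. Between 86.3% and 90.1% of values up to 50 reads were whole reads (tolerance 0.05 reads), so no count test was run. Of 18909 entries, 56 that shared a name were dropped. CPM was recovered, log2(CPM + 1) was taken, and the 13881 genes that reached 1 CPM in 2 or more libraries entered limma 3.58.1 (R 4.3.3) with terms for inhibitor and CXCL12, 1 residual degree of freedom (the difference between the pairs), empirical Bayes with a mean-variance trend (13.3 prior degrees of freedom), two-sided, Benjamini-Hochberg over all genes. The sort and knockout tables were fitted with limma by group. The restricted fit had infinite prior degrees of freedom, so 1 spread per level was shared by all genes. Genes were named by rank among called genes, then the next by p, the largest changes per list, and a preset AKT, FOXO and CXCL12 group; other list members and markers were chosen after their values were seen. The comparison and all lists were chosen with earlier results of these data known. Build and coordinates of the culture table were not used. 1 gene of the preset group is not reported here.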

Additional observations from a re-analysis of the deposited data

How the results depend on the processing

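No paired analysis was possible because, for pairing by replicate, the cultures carry no replicate numbers to pair by; the 2 pairs of the reported fit are matched by CXCL12 status. The number of calls depended on the settings, and the cause was not tested. Lower and higher calls, 12 and 0 as reported, were 0 and 0 with a pseudocount of 0.1 CPM, 46 and 4 with 5 CPM, 58 and 10 with no filter, 22 and 1 with at least 10 CPM in 2 libraries, 29 and 3 with median-ratio scaling, 17 and 1 with quantile normalization, 10 and 0 without mitochondrial and small noncoding RNA, 0 and 0 with no mean-variance trend, and 0 and 0 with no CXCL12 term (unadjusted p under 0.05: 1040 lower). Limited to genes of at least 100 CPM, an alternative chosen after seeing the data, they were 80 and 27. Leaving out any 1 of the 4 libraries (no CXCL12 term, a lone sample assumed to vary like the others) gave 0 lower and 0 higher, with 891 to 2311 genes lower at an unadjusted p under 0.05. Each of the 12 genes passed the threshold in 6 or 7 of 14 alternatives. Genes 2-fold higher and lower in both pairs, 549 and 648, were 342 and 458 with a pseudocount of 5 CPM and 5 and 25 at 100 CPM or more; the pair without CXCL12 alone gave 1588 and 1540, and the pair with CXCL12 alone 1865 and 2435. The change of Lyz2 reversed under quantile normalization (-0.17). With 1 library left out, changes ranged from -0.10 to 0.67 for Akt2, -0.69 to 0.32 for Ccng2, -0.45 to 0.20 for Bcl2l11, -0.06 to 0.25 for Pecam1, -0.23 to 0.47 for Lyz2 and -0.27 to 0.42 for Adgre1; Pecam1 reversed without the CXCL12 library (-0.062) or that with both agents (-0.0053), and Adgre1 without the latter (-0.11). Each condition has 1 library, so an effect of a single culture and an effect of the treatment cannot be told apart beyond the agreement of the 2 pairs, and under 30 CPM opposite 2-fold changes outnumbered those higher, and those lower, in both pairs.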

Other observations

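A wider set of genes of the antioxidant response, most of them described targets of the transcription factor NRF2, was read beside Prdx1 and Srxn1. The list was written after the values had been seen, so its direction is not independent of them. Of 22 genes tested, 2 were called lower (Prdx1 and Srxn1), against 0.0864% of all genes. In both pairs 13 were below 0 and 2 above, against 29.7% and 22.7% of all genes, and the median change was -0.62 on the log2(CPM + 1) scale against -0.13. Hmox1, which encodes the heme-degrading enzyme heme oxygenase 1, was at 3458 CPM untreated, 4280 CPM with CXCL12, 1907 CPM with the inhibitor and 2416 CPM with both (change -0.84, adjusted p = 0.446 by limma over all genes, 0.0024 in the fit limited to genes of at least 100 CPM). Slc7a11, the cystine importer, was at 2258 and 2465 CPM without and 1442 and 1349 CPM with the inhibitor (change -0.76). Gclm and Gclc, the subunits of the enzyme that limits glutathione synthesis, were at 200 and 205 CPM against 93.8 and 89.6 CPM, and at 634 and 538 CPM against 352 and 366 CPM. In all 4 genes both libraries with the inhibitor lay below both others, but the share of all genes where they did was not counted.

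The p200 family, interferon-inducible genes of DNA-sensing proteins that include Ifi203, was also written as a list after the values had been seen. Of 12 genes tested, none was called, against 0.0864% of all genes. In the fit limited to genes of at least 100 CPM, 3 of 3 members (Ifi203, Ifi204, Ifi207) were called lower, against 3.76% of all genes there. That fit, like the list, was chosen after the values had been seen. In both pairs 9 were below 0 and none above, against 29.7% and 22.7% of all genes, with a median change of -1.41 against -0.13. Ifi209 was at 146 and 123 CPM without the inhibitor and 31.5 and 8.79 CPM with it (change -2.92, adjusted p = 0.074). Ifi204 was at 127 and 217 CPM against 42.5 and 99.5 CPM, and Ifi207 at 533 and 515 CPM against 374 and 269 CPM. These genes are related neighbours, and reads could be shared among them, so values of single members are uncertain. The sharing of reads was not measured.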
